A study of Homo sapiens with 6 samples.

Results

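The androgen receptor coactivators are the proteins that the hormone-bound receptor recruits to switch on its target genes. They were taken as 10 genes: the p160 family members NCOA1, NCOA2 and NCOA3, the receptor-associated protein NCOA4, the acetyltransferases EP300, CREBBP and KAT2B, the Mediator subunit MED1, the SUMO ligase PIAS1 and the LIM-domain protein FHL2. Every probe set annotated to exactly 1 of these genes was a member, which gave 24 of the 54675 probe sets of the array, for 9 of the 10 genes (19775 genes had such a probe set in all). NCOA3 was not analysed here. Of the 24, 22 probe sets of 8 genes were bright enough to be tested, and 2 were not, 1 of CREBBP and the single one of FHL2.

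The arrays measured RNA of LNCaP, a cell line established from a prostate cancer that had spread, which depends on and responds to androgen. In bulk RNA of this kind, fewer cells of a type and less RNA per cell cannot be told apart. All 6 cultures were kept in RPMI without phenol red, with a supplement that the labels give as 10% charcoal/dextran. Charcoal and dextran are commonly used to strip steroids from serum. After 3 days, 3 cultures had 100 nM of the androgen dihydrotestosterone (DHT), the form of testosterone that binds the receptor most tightly, for 48 h, and 3 were controls. The labels' protocols name no vehicle for the controls. The labels call the arrays biological replicates without naming separate culture days, so the p-values rest on the spread between these samples.

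When androgen binds, the receptor changes shape and exposes a surface that short leucine-rich motifs of the p160 proteins dock onto. The p160 proteins bring in the acetyltransferases CREBBP and EP300, which acetylate histones at enhancers and promoters, and Mediator then links the receptor complex to RNA polymerase. PIAS proteins attach SUMO to the receptor and to its partners, and can raise or lower its activity depending on the gene. The comparison of DHT with control asked whether androgen changes the transcripts of these partners themselves.

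Signals are linear MAS5 values, in which a probe set's probe pairs are combined into 1 number. A probe set whose name ends in _s_at can match several transcripts, and one ending in _x_at is prone to cross-hybridisation. Each array had a mean of 100.03 after trimming 2% at both ends, so the arrays had been put on 1 scale, and the median signal was 27.6 ± 2.16 in control arrays and 28.8 ± 1.10 in DHT arrays (SD over 3 arrays). Differences are DHT minus control on log2(signal + 16), where the added constant shrinks differences of dim probe sets, with limma's standard error and a Benjamini-Hochberg adjusted p over all 32768 tested probe sets, called at 0.05. Because of the scaling, each is a change against the bulk of transcripts on the same array. Only 3 arrays per group limit the precision. In these arrays the receptor targets KLK3, which encodes prostate-specific antigen, and TMPRSS2, a membrane serine protease, had 4.11 and 6.78 times the control signal with DHT in 204582_s_at and 211689_s_at, without overlap of the groups. Luminal markers of prostate epithelium were present, with 5 of 6 genes tested and a summed signal of 7000 to 7538 in the controls and 13972 to 14483 with DHT. Mean signals of KLK3 (2186 and 8985), FOLH1 (589 and 744) and KRT18 (2381 and 2793) were higher with DHT, and those of HOXB13 (1556 and 1203) and KRT8 (595 and 437) were lower, so KLK3 made most of the difference in the sum. The basal markers KRT5 and KRT14 and the leukocyte markers PTPRC and CD14 lay below the test's lower limit of 17.3. Of the endothelial markers 2 of 3, and of the fibroblast markers all 3, had a tested probe set. The summed fibroblast signal was 259.7 to 296 in the controls and 198 to 231 with DHT, with COL1A1 at a mean of 198 and 132, DCN at 51.4 and 46.7 and COL3A1 at 26.5 and 32.5. The summed endothelial signal was 191 to 204 and 200.2 to 262. The part of these markers in the results was not tested.

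On the deposited scale, coactivator transcripts did not move in 1 direction with DHT. EP300 fell, NCOA1 had probe sets called both ways, and most others did not pass. Of the 22 tested probe sets, 5 passed (22.7%), against 10.3% of all tested probe sets, and no test was made of this share because probe sets of a gene are not independent. Of these, 4 were lower with DHT, where 5.25% of all probe sets were lower, and 1 was higher, where 5.09% were. The higher one, NCOA1 209106_at, passed in only 1 of the 6 runs that left out an array. The differences of the 22 ran from -0.66 to 0.40 with a median of 0.09, beside a median of 0.01 over all tested probe sets. The 3 DHT arrays lay wholly above or below the 3 controls in 10 of the 22 (45.5%), against 28.7% of all. At an unadjusted p under 0.05 limma gave 10 of the 22, where it gave 23.9% of all tested probe sets. The share of all probe sets that passed was larger among brighter ones. With the lowest 60% left out it was 17.3%, and 6 of 21 coactivator probe sets passed. Probe sets of the same gene often gave different answers, most of all for NCOA1.

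**Figure D1:**
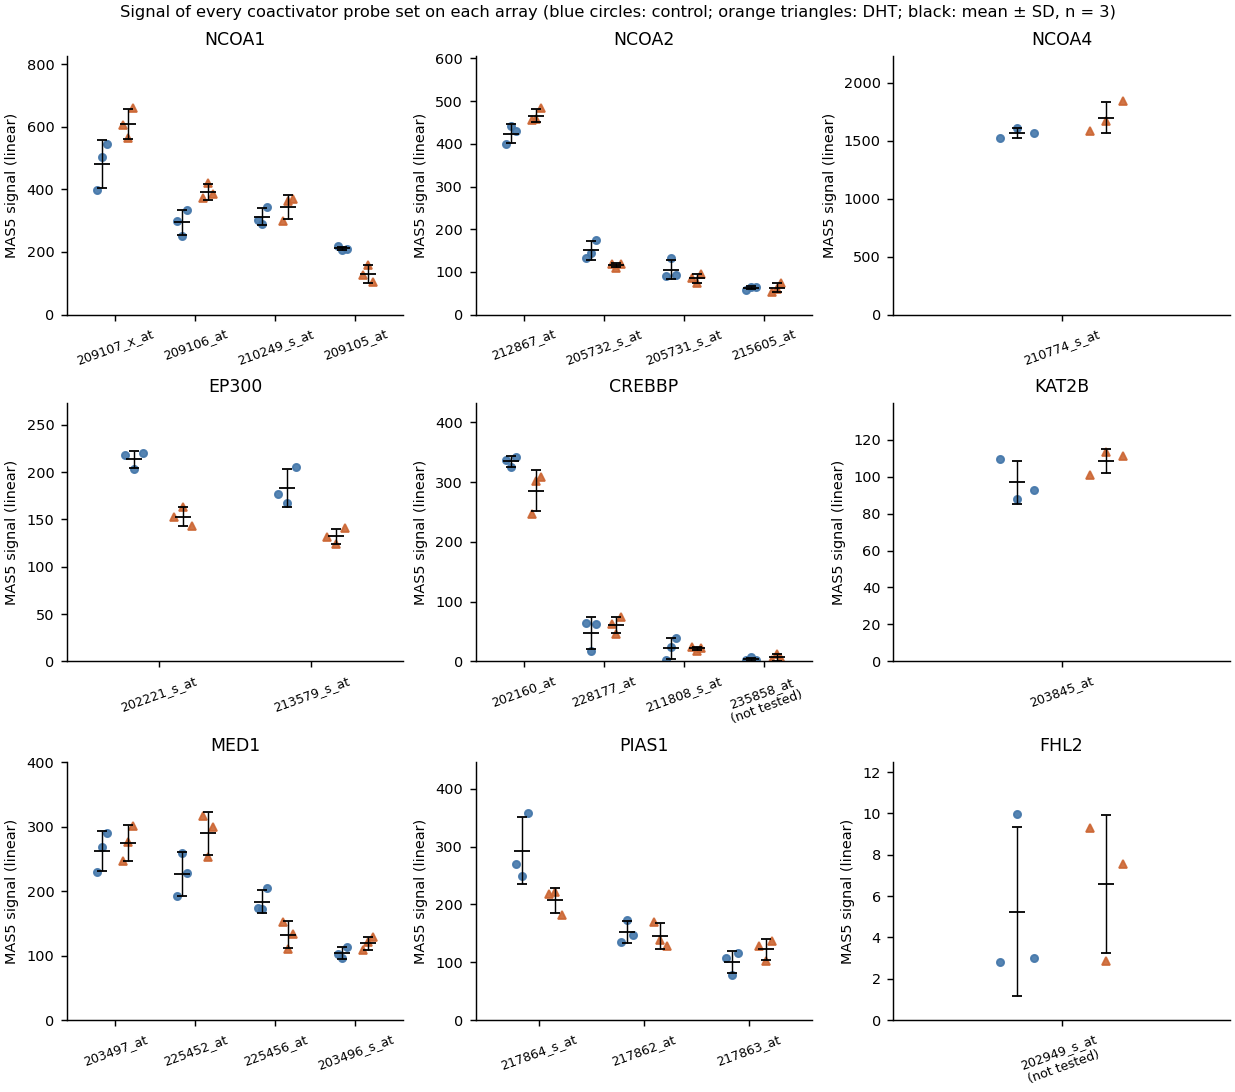
MAS5 signal on a linear axis from 0 for each of the 24 coactivator probe sets, 1 panel per gene, with control arrays as blue circles, DHT arrays as orange triangles and the mean ± SD of 3 arrays in black. Both EP300 probe sets have all DHT arrays below all controls, whereas NCOA1 has 209105_at below and 209106_at above.

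NCOA1, also called SRC-1, is a p160 coactivator that binds the hormone-bound receptor directly. It was the coactivator with probe sets called in both directions. Probe set 209105_at fell from signals of 218, 207 and 209 in the controls to 126, 159 and 104 with DHT. The 3 controls were close together, and every DHT array lay below them. The means were 211 ± 5.62 and 129.5 ± 27.4 (SD, n = 3 each), a log2 difference of -0.66 ± 0.13 (SE; limma adjusted p = 0.00909). Probe set 209106_at rose from 298, 252 and 333 to 372, 421 and 386. Here every DHT array lay above the controls, and the log2 difference was 0.40 ± 0.11 (limma adjusted p = 0.0319). Probe set 209107_x_at had 397, 503 and 546 in the controls and 604, 565 and 660.1 with DHT, without overlap. Its log2 difference of 0.34 ± 0.11 did not pass (limma adjusted p = 0.0843). The fourth, 210249_s_at, had 0.13 (95% interval -0.10 to 0.35), and its groups overlapped. The fall in 209105_at passed when each array was left out in turn (adjusted p = 0.00429 to 0.0341) and among the settings tried lost its call only where limma's variance had no trend with intensity (adjusted p = 0.0613). The rise in 209106_at passed in 1 of those 6 runs, the one without control replicate 3 (adjusted p = 0.0243), and had 0.0553 to 0.113 in the others. It also lost its call with no limit on dim probe sets (limma adjusted p = 0.0633), equal array medians (0.183) and limma without the trend (0.133). With arrays scaled to RNAs added in equal amount before hybridisation, 209106_at had -0.12 (limma adjusted p = 0.539).

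The opposed NCOA1 probe sets were compared directly, by taking within each array the log2 signal of one minus that of the other. For 209106_at minus 209105_at this was 0.43, 0.26 and 0.63 in the controls and 1.45, 1.32 and 1.74 with DHT. The groups did not overlap, and the gap widened by 1.06 ± 0.16 with DHT (SE; limma adjusted p = 0.0021 over 21877 pairs of probe sets of a gene). The gap of 209107_x_at over 209105_at widened by 1.0 ± 0.19 (adjusted p = 0.0103) and that of 210249_s_at over 209105_at by 0.79 ± 0.17 (adjusted p = 0.0174). The last of these did not pass without control replicate 1, control replicate 2 or DHT replicate 3 (adjusted p = 0.0530 to 0.0651). Among the 3 probe sets other than 209105_at, no pair passed, with differences of 0.28, 0.21 and -0.07. The first of these, 209106_at minus 210249_s_at, did not overlap between the groups (95% interval 0.03 to 0.53, limma adjusted p = 0.184). These 3 probe sets therefore cannot be taken to respond alike. Each NCOA1 pair that passed included 209105_at. Of 6785 genes with several tested probe sets, 41 had probe sets called in both directions (0.604%). NCOA1 was 1 of them through the call of 209106_at, which was lost in the runs given above. The share over all such genes was not matched for the number of probe sets per gene, of which NCOA1 had 4. In the mean of its 4 probe sets NCOA1 had 0.05 (95% interval -0.13 to 0.23). Where each probe set lies in the NCOA1 transcripts was not analysed here.

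RefSeq gives NCOA1 3 transcription start windows on GRCh38.p14, spread over 93223 bases. All windows used here run from 250 bases before a start to 50 after it. The first NCOA1 window holds the letters AGAACA, a hexamer of the element that the androgen receptor binds, beginning 24 bases from the start on the plus strand, within chr2:24491265-24491294. It is shown because NCOA1 has the opposed probe sets, with the hexamer in capitals:
NCOA1 start region: cggccgaggaggAGAACAtggcggccgcgg

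The hexamer, searched as AGAACA on both strands, occurs in 14.8% of 35116 RefSeq start windows of 300 bases and in 2 of the 17 windows of the coactivator genes, for which 9 of the 10 genes matched. The palindrome of the hexamer and its reverse complement 3 bases apart, which overlaps the hexamer's matches, occurs in 1 of the 35116 windows and in 0 of the 17. These matches describe letters in the windows and say nothing about binding.

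NCOA2, the p160 coactivator also called TIF2 or GRIP1, had 4 tested probe sets, none of which passed. Probe set 212867_at had 399, 442 and 429 in the controls and 456, 458 and 483 with DHT. All DHT arrays lay above the controls, but by little, at 0.13 ± 0.08 (limma adjusted p = 0.337; 95% interval -0.04 to 0.31). Probe set 205732_s_at went the other way without overlap, from 132, 144 and 175 to 118, 110.1 and 118. Its log2 difference was -0.33 ± 0.12 (adjusted p = 0.12). The gap between these probe sets was 0.47 wider with DHT (95% interval 0.15 to 0.79), which did not pass over all pairs (limma adjusted p = 0.0876). The remaining probe sets, 205731_s_at and 215605_at, had -0.25 and -0.01, with overlapping groups.

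NCOA4, first described as an androgen receptor associated protein and known also as the receptor that delivers ferritin to autophagy, was read from 210774_s_at alone. It had 1526, 1612 and 1568 in the controls and 1584, 1675 and 1844 with DHT. The groups overlapped, and the log2 difference of 0.11 ± 0.08 did not pass (limma adjusted p = 0.411). Its 95% interval ran from -0.05 to 0.28.

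**Figure D2:**
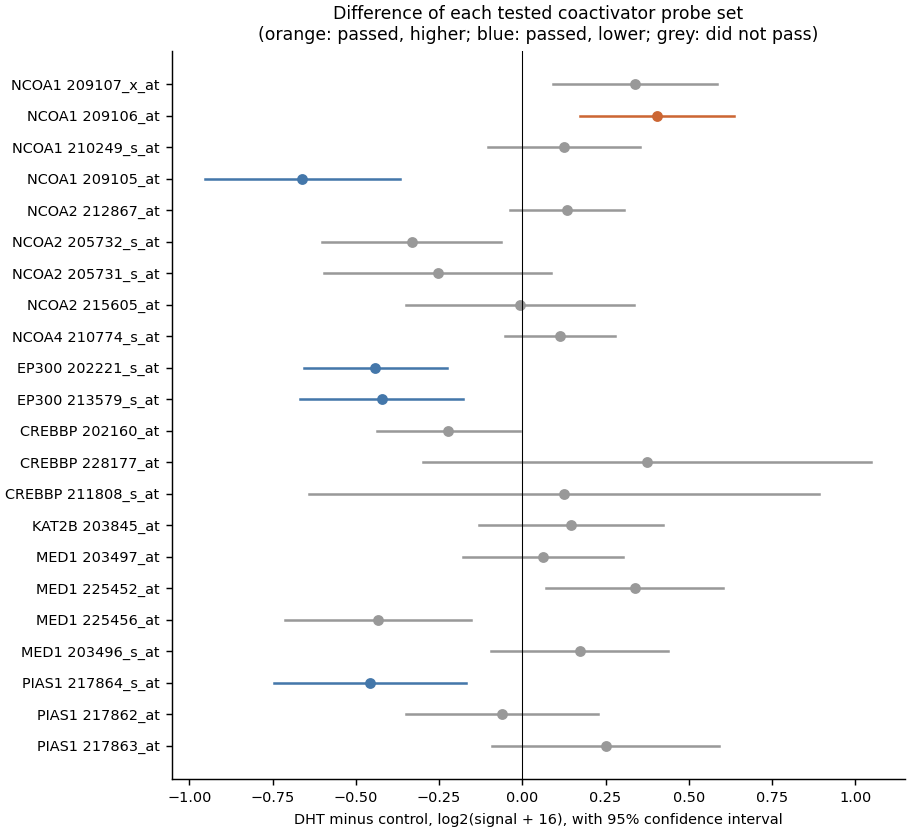
DHT minus control on log2(signal + 16) for the 22 tested coactivator probe sets, ordered by gene, with 95% confidence intervals from limma; orange passed as higher, blue as lower, and grey did not pass. The 2 EP300 points sit together at -0.44 and -0.42, whereas the 4 NCOA1 points run from -0.66 to 0.40.

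EP300, the acetyltransferase p300, was the coactivator whose probe sets both fell. Probe set 202221_s_at had 218, 203 and 219.9 in the controls and 153, 163 and 144 with DHT. Probe set 213579_s_at had 177, 167 and 206 in the controls and 132, 124 and 141 with DHT. In both, every DHT array lay below every control. The means went from 214 ± 9.26 to 153 ± 9.72 and from 183 ± 20.1 to 132 ± 8.19 (SD, n = 3 each). The log2 differences were -0.44 ± 0.10 and -0.42 ± 0.11 (limma adjusted p = 0.015 and 0.034). The difference between the probe sets in their response was -0.02 (95% interval -0.33 to 0.29; adjusted p = 0.961). In the mean of both, EP300 had -0.43 ± 0.08 (adjusted p = 0.00935 over 14269 genes, of which 10.4% passed), and none of the other 7 tested coactivator genes passed this way. With control replicate 3 or DHT replicate 3 left out, 202221_s_at missed the threshold (adjusted p = 0.0604 and 0.0539). Of the runs that left out an array, 213579_s_at passed only in the one without control replicate 2 (adjusted p = 0.0428, and 0.0546 to 0.138 in the others). Neither probe set passed in limma without the trend (adjusted p = 0.0631 and 0.0963). Probe set 213579_s_at also missed with no limit on dim probe sets (limma adjusted p = 0.0561) and with equal array medians (0.0520).

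CREBBP, the paralogue of EP300, was read from 3 tested probe sets. Probe set 202160_at had 337, 325 and 342 in the controls and 247, 301 and 309 with DHT. All DHT arrays lay below the controls, but the log2 difference of -0.22 ± 0.10 did not pass (limma adjusted p = 0.195; 95% interval -0.44 to -0.01). Whether CREBBP and EP300 differed in their response was not tested. Probe sets 228177_at and 211808_s_at had 0.37 and 0.12, with intervals from -0.30 to 1.05 and from -0.64 to 0.89, and their controls alone spread from 16.7 to 64.1 and from 2.59 to 38.6. No CREBBP pair passed. The untested 235858_at stayed between 2.06 and 12.9 on all arrays.

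The promoters of this pair of acetyltransferases are shown because EP300 was lower in all its probe sets and CREBBP is its closest relative. Each run is the 250 bases before the outermost RefSeq start on GRCh38.p14, EP300 on the plus strand at chr22:41092342-41092591 and CREBBP on the minus strand at chr16:3880714-3880963:
EP300 promoter: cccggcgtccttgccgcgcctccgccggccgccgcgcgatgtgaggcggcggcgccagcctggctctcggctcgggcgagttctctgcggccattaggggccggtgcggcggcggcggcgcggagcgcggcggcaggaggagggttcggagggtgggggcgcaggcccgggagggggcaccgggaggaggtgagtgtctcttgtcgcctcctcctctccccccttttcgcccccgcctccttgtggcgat
CREBBP promoter: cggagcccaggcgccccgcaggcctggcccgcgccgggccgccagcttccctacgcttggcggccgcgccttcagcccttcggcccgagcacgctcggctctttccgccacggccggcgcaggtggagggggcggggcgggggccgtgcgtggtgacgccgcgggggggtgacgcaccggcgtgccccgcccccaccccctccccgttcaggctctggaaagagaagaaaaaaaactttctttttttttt

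Neither run holds the hexamer. They consist of G and C at 76.8% and 72.4%. The window of the other CREBBP start has the hexamer on the strand opposite to the transcript, so it reads TGTTCT here, in capitals, within chr16:3880280-3880309:
CREBBP other start: gcggcggcaccaTGTTCTcggggactgcct

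KAT2B, the acetyltransferase PCAF that joins the p160 and EP300 proteins at active genes, was read from 203845_at. It had 109.7, 87.9 and 93.0 in the controls and 101, 113 and 111 with DHT. Control replicate 1 lay among the DHT arrays, and the log2 difference of 0.15 ± 0.13 did not pass (limma adjusted p = 0.543; 95% interval -0.13 to 0.42).

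MED1 is the Mediator subunit that contacts nuclear receptors. Probe set 203497_at had 229, 268 and 290.4 in the controls and 247, 276 and 302 with DHT, with full overlap and a log2 difference of 0.06 ± 0.11 (limma adjusted p = 0.791). Probe set 225456_at had 174, 173 and 205 in the controls and 153, 111 and 134 with DHT. Its groups did not overlap, and its log2 difference of -0.43 ± 0.13 fell just short (adjusted p = 0.0526). Probe set 225452_at had 192, 259.8 and 228 in the controls and 316, 253 and 299.9 with DHT. Its log2 difference was 0.34 ± 0.12 (adjusted p = 0.11), with overlap, and 203496_s_at had 0.17 ± 0.12 (adjusted p = 0.436).

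No MED1 probe set passed alone, but one pair did. The gap of 225452_at over 225456_at was 0.13, 0.55 and 0.14 on the log2 scale in the controls and 0.98, 1.08 and 1.07 with DHT. It widened by 0.77 ± 0.15 (SE; limma adjusted p = 0.0111 over pairs), a call that was lost with control replicate 3 left out (adjusted p = 0.0572). The gaps of 225456_at to 203497_at and to 203496_s_at also did not overlap between the groups, at adjusted p = 0.0983 and 0.0561. In the mean of its 4 probe sets MED1 had 0.03 (95% interval -0.16 to 0.23).

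PIAS1, a SUMO ligase that modifies the androgen receptor and other transcription factors, had 3 tested probe sets. Probe set 217864_s_at had 271, 249.9 and 358 in the controls and 219, 221 and 182 with DHT. Every DHT array lay below the controls, although control replicate 3 was well above the other controls. The fall of -0.46 ± 0.13 only just passed (limma adjusted p = 0.0487), and of the runs that left out an array it passed in the one without control replicate 2 (adjusted p = 0.0357; 0.0715 to 0.169 in the others). Probe set 217862_at had -0.06 ± 0.13 (adjusted p = 0.835) and 217863_at had 0.25 ± 0.16 (adjusted p = 0.37), both with overlapping groups.

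The gap of 217864_s_at over 217863_at was 1.22, 1.49 and 1.49 on the log2 scale in the controls and 0.71, 1.0 and 0.37 with DHT. It narrowed without overlap, at -0.71 ± 0.18 (SE; limma adjusted p = 0.0416 over pairs), and passed only with DHT replicate 2 left out (adjusted p = 0.0333; 0.0578 to 0.147 in the others). With the replicate number as a block, neither the fall of 217864_s_at (adjusted p = 0.0682) nor this pair (adjusted p = 0.0551) passed. Both also lost their call with an added constant of 1, no limit on dim probe sets and limma without the trend. The fall of 217864_s_at was further lost with quantile normalisation, equal array medians and limma's robust fit. In the mean of its 3 probe sets PIAS1 had -0.09 (95% interval -0.31 to 0.13).

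FHL2, a LIM-domain protein that binds the receptor as a coactivator, was at the floor of the array. Its probe set 202949_s_at had 2.80, 9.98 and 2.99 in the controls and 9.32, 2.85 and 7.57 with DHT. These values lay under the lower limit of 17.3 in every array, had no order between the groups and were not tested.

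**Figure D3:**
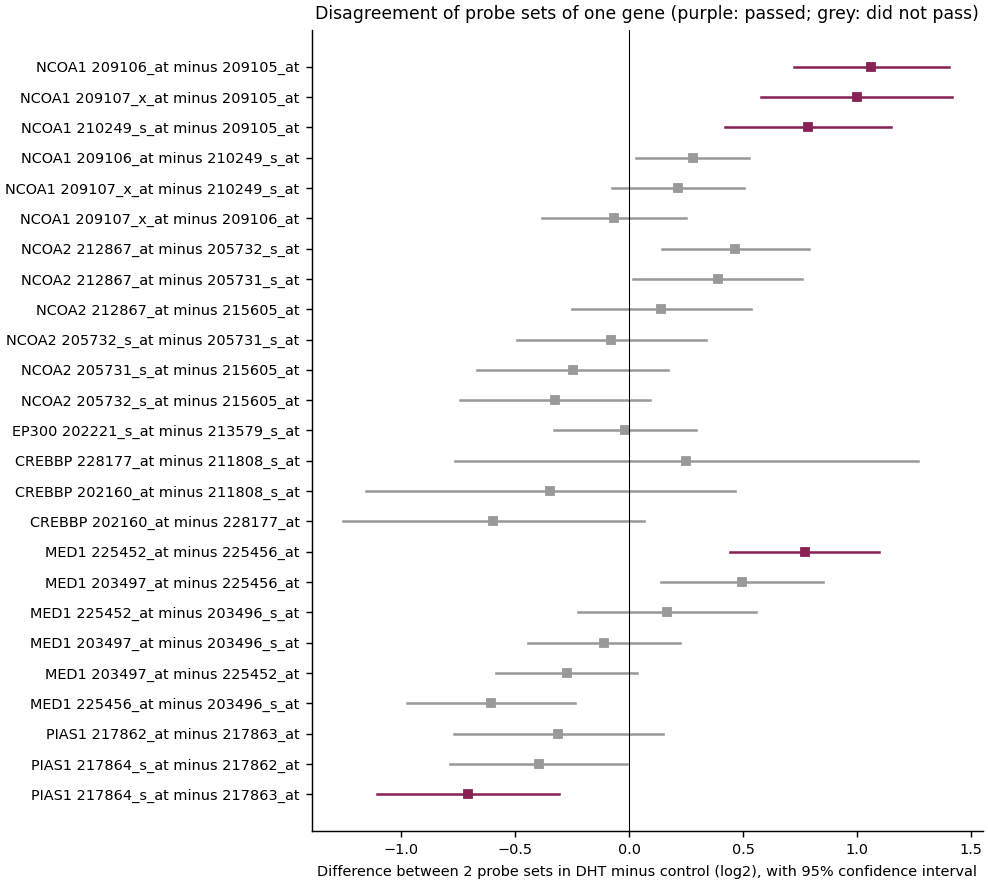
For each of the 25 pairs of tested probe sets of one coactivator gene, the difference between their responses to DHT on the log2 scale (brighter minus dimmer probe set) with its 95% confidence interval; purple passed and grey did not. The 3 NCOA1 pairs that include 209105_at lie between 0.79 and 1.06, and the EP300 pair lies at -0.02.

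Over the 6 coactivator genes with several tested probe sets, 5 of 25 pairs passed (20%), against 5.6% of all 21877 such pairs on the array. They belonged to NCOA1 (3 of 6 pairs), MED1 (1 of 6) and PIAS1 (1 of 3), and none to NCOA2, CREBBP or EP300. The pairs of a gene share probe sets, so these counts are not independent. In 11 of the 25 pairs the groups did not overlap, against 25.9% of all pairs. At least 1 pair passed in 10.6% of the 6785 genes with several tested probe sets. The ratio of 3' to 5' signal for ACTB was 1.37 ± 0.05 in control arrays and 1.77 ± 0.07 in DHT arrays. For GAPDH it was 0.904 ± 0.044 and 1.06 ± 0.05 (SD over 3 arrays). Neither ratio overlapped between the groups (two-sided exact permutation p = 0.1 for both, the smallest that 3 against 3 arrays can give). Its part in the disagreement of probe sets was not tested.

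A list of 34 other genes that work with the androgen receptor as coregulators had 30 tested members, each read from its brightest probe set. Of these, 1 rose and 3 fell, 13.3% against 11.9% of all genes read this way (6.47% higher and 5.42% lower), so the list's share was near the background. When all probe sets of each gene were averaged, 2 rose and 1 fell, where 10.4% of all genes passed in either direction. Its median was -0.07, beside 0.02 over all genes. UBE3A, a ubiquitin ligase and steroid receptor coactivator, fell from 934, 809.7 and 907 to 597, 555 and 609, at -0.58 ± 0.08 (limma adjusted p = 0.00106). Of its 5 tested probe sets 3 fell, and the other two had -0.04 and 0.10. BRCA1, a DNA repair protein that also binds the receptor, rose from 43.7, 50.8 and 28.8 to 79.2, 92.4 and 96.6, at 0.90 ± 0.18 (adjusted p = 0.00835). Its other probe set had 0.48 and did not pass (adjusted p = 0.0695). NCOA7, a coactivator of nuclear receptors, fell by 0.35 on the log2 scale (adjusted p = 0.0209), and SMARCE1, a subunit of the SWI/SNF chromatin remodeller, fell by 0.30 (adjusted p = 0.0241), in 3 of its 4 tested probe sets. With an array left out in turn SMARCE1 passed only without control replicate 2 (adjusted p = 0.0285), and NCOA7 did not pass without control replicate 3, DHT replicate 1 or DHT replicate 2 (adjusted p = 0.0684 to 0.0877). In the mean of their probe sets UBE3A, NCOA7 and SMARCE1 did not pass (-0.25, -0.31 and -0.24, adjusted p = 0.0744, 0.123 and 0.0723). BRCA1 did (0.69, limma adjusted p = 0.0067). The other genes that passed in the mean had not passed in their brightest probe set.

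The other subunits of Mediator, the complex of MED1, gave 29 tested genes of 32. Of these, 2 rose and 3 fell (17.2%, against 11.9% of all genes), with a median of -0.01. The kinase module, which reversibly docks onto Mediator, had its paralogous kinases called in opposite directions on the deposited scale, but not with arrays scaled to the hybridisation spikes, RNAs added in equal amount before hybridisation, where CDK19 had 0.02 (limma adjusted p = 0.895) and CDK8 -0.89 (adjusted p = 0.000109). CDK19 rose from 814, 891 and 922 to 1335, 1302 and 1272, at 0.57 ± 0.07 (limma adjusted p = 0.0007). CDK8 fell from 513, 500.1 and 551 to 388, 400.0 and 422, at -0.36 ± 0.08 (adjusted p = 0.0144). In both genes the arrays of the groups did not overlap in these probe sets. All 4 CDK19 probe sets were positive (0.14 to 0.68, 2 called) and all 3 CDK8 probe sets negative (-0.36 to -0.25, 1 called), and both genes passed in the mean of their probe sets (0.46 and -0.30, adjusted p = 0.00395 and 0.0245). CDK8 lost its call with control replicate 3, DHT replicate 1 or DHT replicate 2 left out (adjusted p = 0.0505 to 0.0638). The related sequences of the kinases could share signal, and their difference was not tested directly.

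Of the remaining Mediator genes that passed, MED29 fell by 0.47 on the log2 scale and MED19 by 0.44 (limma adjusted p = 0.00705 and 0.0127). MED29 had a single tested probe set, and MED19 lost its call with control replicate 3 left out (adjusted p = 0.0599). The other MED19 probe set had 0.23 (adjusted p = 0.212), and their mean -0.11 did not pass (adjusted p = 0.431). MED23, named here after its values were seen to complete the count, rose by 0.34 (adjusted p = 0.0305), did not pass when any 1 array was left out (adjusted p = 0.0601 to 0.107), and had -0.23 to 0.09 in its other 4 probe sets.

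**Figure D4:**
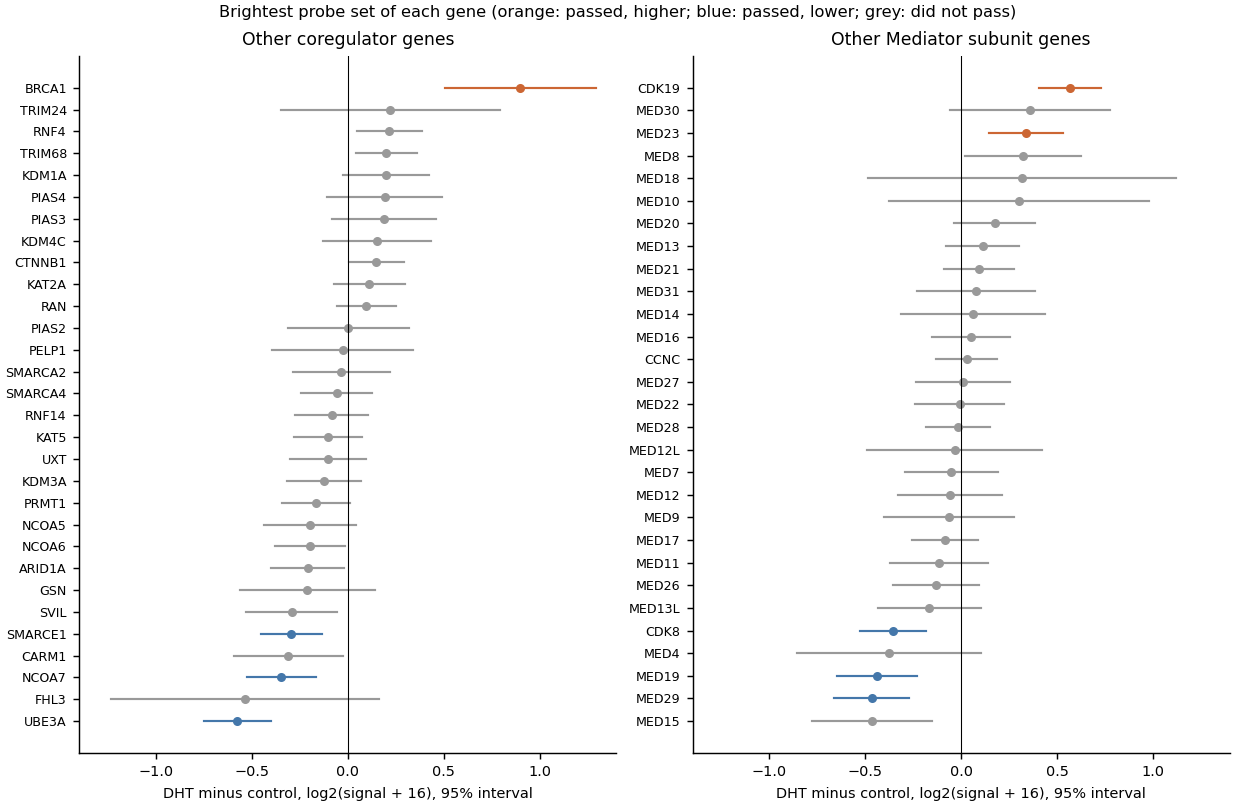
DHT minus control on log2(signal + 16), with 95% confidence intervals, for the brightest probe set of 30 other coregulator genes (left) and 29 other Mediator subunit genes (right), sorted by size; orange passed as higher, blue as lower, and grey did not pass. Most intervals cross 0, and BRCA1 (0.90) and UBE3A (-0.58) mark the ends of the left panel.

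For the coactivators too, scaling the arrays to the hybridisation spikes changed calls, since it moved the median of all tested probe sets from 0.01 to -0.43. Over all probe sets, 1669 were called higher and 1719 lower as deposited, 254 and 15227 with spike scaling, and 880 and 1498 with equal array medians. Spike scaling made all 12 positive coactivator differences negative. With it 209105_at, both EP300 probe sets and 217864_s_at still passed as lower. The rise of 209106_at became -0.12 (adjusted p = 0.539), above the shifted median but no longer a rise. The pairs compare probe sets within an array, and the same 5 passed under this scaling.

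**Figure D5:**
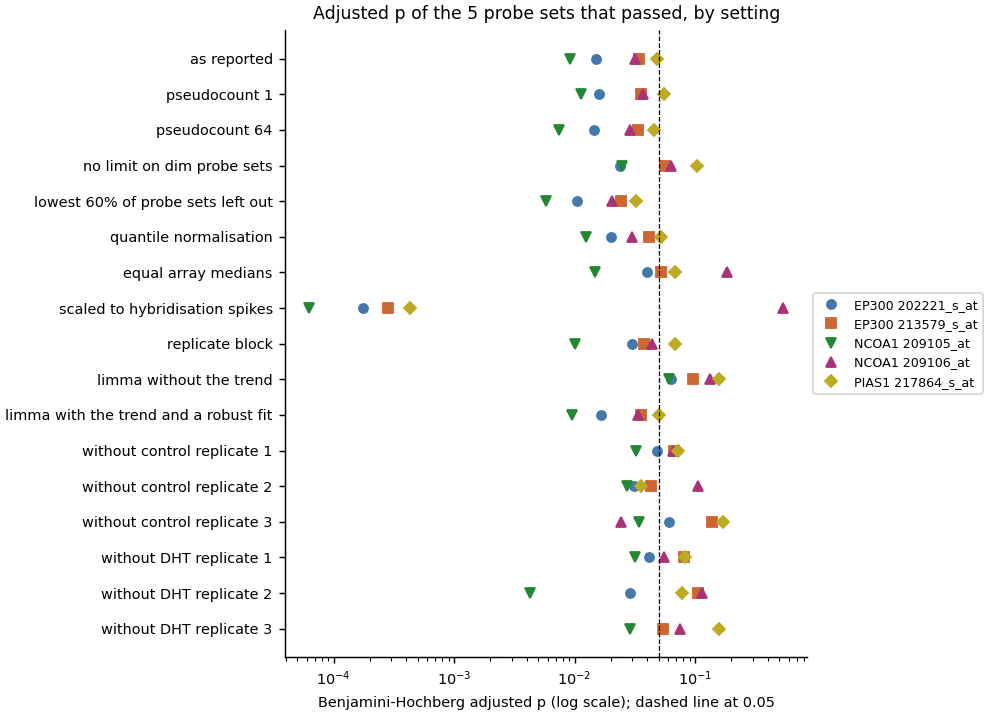
Benjamini-Hochberg adjusted p (log axis, dashed line at 0.05) of the 5 coactivator probe sets that passed, under each setting tried and with each array left out; each symbol is 1 probe set. NCOA1 209105_at lies left of the line in every setting except the fit without the trend (0.0613), whereas PIAS1 217864_s_at lies on either side of the line.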

How the data were processed

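Total RNA of 6 cultures was measured on Affymetrix arrays with 1 label, as the labels' protocols describe. Linear signal intensity per probe set was deposited by the authors, who used MAS5 according to the submitters' processing notes. MAS5 subtracts a mismatch or estimated background, so dim values are noisy. The arrays shared 1 scale as deposited and no other normalisation was applied. Samples were grouped by title, and 0 columns were left unused.

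Of 54675 probe sets, 62 controls were left out, and 41097 named 1 gene in the platform annotation; 41043 matched a gene of GRCh38.p14 by identifier, with 0 symbols changed. The lowest 40% by mean log2(signal + 16) were left out, at a signal of 17.3. log2(signal + 16) of the deposited intensity was fitted with limma 3.58.1 (R 4.3.3; lmFit, and eBayes with an intensity trend, with 4 residual degrees of freedom). Pairs of probe sets of a gene were fitted as within-array differences, with the trend taken on the dimmer one. Lists read a gene from its brightest probe set (one ending in _x_at only where no other was tested), at the adjusted p over probe sets. Named are all members, the 4 smallest adjusted p of each list, KLK3 and TMPRSS2. The members and lists were chosen with earlier results of these data known. The fits were tested on simulated data. Alternatives were pseudocounts of 1 and 64, other limits on dim probe sets, quantile, median and spike scaling, a replicate block, limma without the trend or robust, averaging over the probe sets of each gene, and dropping each array in turn. Ratios used scipy 1.17.1, and figures matplotlib 3.10.9 (Python 3.11.15).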

Additional observations from a re-analysis of the deposited data

How the results depend on the processing

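The number of coactivator probe sets that passed, 5 as reported, was 2 with no limit on dim probe sets (4.44% of all passed), 2 with equal array medians (7.26% of all), 14 with spike scaling (all lower; 47.2% of all), and 0 in limma without the trend, where 7 had an unadjusted p under 0.05 and 3.86% of all probe sets passed. It was 1 to 4 with an array left out, where 6.3% to 8.04% of all probe sets passed. The number of pairs was 0 in limma without the trend, where 9 had an unadjusted p under 0.05 and 0.608% of all pairs passed. It was 3 to 6 with an array left out, where 2.29% to 3.72% of all pairs passed. The other coregulator genes that passed numbered 2 with equal array medians (1 higher, 1 lower, against 7.7% of all genes) and 24 with spike scaling (1 higher, 23 lower, against 52% of all genes). They numbered 2 without the trend (1 higher, 1 lower, against 4.14% of all genes) and 2 to 4 with an array left out (against 7.29% to 9.11% of all genes). The Mediator genes numbered 19 with spike scaling (0 higher, 19 lower), 1 without the trend (higher), 3 (1 higher, 2 lower) when all probe sets of each gene were averaged and 2 to 4 with an array left out. With averaging 10.4% of all genes passed, and the other shares of all genes are those given for the coregulators. The ratio difference of DHT minus control was 0.372 to 0.437 for ACTB and 0.132 to 0.183 for GAPDH with an array left out. Spike scaling turned the sign of NCOA1 209106_at (-0.12) and 210249_s_at (-0.40), NCOA2 212867_at (-0.40), NCOA4 210774_s_at (-0.43), MED1 203497_at (-0.46) and MED23 (-0.18). It also turned 7 more coactivator probe sets that passed under neither scaling. By its construction it raised the signals of all control arrays and lowered those of all DHT arrays, which lowers every DHT minus control difference. The cause of the other changes was not tested. Same-numbered arrays of the groups did not deviate together (correlations of -0.03, -0.01 and 0.00), so the numbers were not taken as pairs. With the replicate block 4 coactivator probe sets and 4 pairs passed, where 9.5% of all probe sets and 4.09% of all pairs did. Of the members named PIAS1 217864_s_at and its pair lost their call, as did MED23 (adjusted p = 0.0526).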
